A study of Mus musculus with 2 samples.

Results

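The proteasome subunits and regulators were taken as the genes whose symbols start with Psma, Psmb, Psmc, Psmd, Psme, Psmf or Psmg followed by a number, leaving out Psmb8, Psmb9 and pseudogenes. In the count table of 46095 genes, 48 symbols matched, and 45 of them were among the 17356 genes tested, those with 10 or more counts over the pair of libraries. The proteasome is the large protease that degrades proteins tagged with ubiquitin in the cytosol and nucleus. Its 20S core is a stack of outer alpha rings and inner beta rings with the protease sites inside, and the 19S particle that caps it recognizes, unfolds and threads the substrate. Other activators can dock on the core in place of the 19S particle, and dedicated chaperones assemble both parts without becoming part of the finished complex.

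RNA-seq compared C3H10 cells transfected with an antisense oligonucleotide (ASO) against MALAT1, a nuclear long noncoding RNA, with the same cells given the negative control ASO (NC), to ask which genes respond to loss of MALAT1 during adipogenesis. C3H10 is an established mouse mesenchymal line that can form adipocytes. The labels give its strain as C57BL/6, which was not checked against the origin of the line. Both groups received 100 nM ASO with RNAiMAX, were induced with isobutylmethylxanthine, dexamethasone, troglitazone and insulin, and were collected at the sixth day of differentiation. Each group has 1 library of RNA depleted of rRNA, so no difference here has a replicate check, and which ASO against MALAT1 was sequenced is not given in the sources used here.

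Sequencing depth was 58147539 counts for the control and 61653549 counts for the knockdown library. Malat1 itself had 170402 counts in the control library and 45396 in the knockdown library, or 24.7% of the control level after scaling. Of 10 adipocyte markers, 9 were tested, all 9 were lower in the knockdown library and their summed level went from 5955 to 2317 CPM (counts per 1000000 counts of the scaled library size), with Lep at 1 and 0 counts. Of 10 preadipocyte or fibroblast markers, 9 were tested, all 9 were higher and their summed level went from 16483 to 18336 CPM, with Dlk1 at 0 in both libraries. The 25 cell cycle genes were all higher, with summed levels of 1547 and 2366 CPM. Of 6 macrophage markers, Ptprc, Adgre1 and Itgam were at 0 in both libraries and the list summed to 3.15 and 2.53 CPM. Most of that sum was Cd68, with 172 and 119 counts, while Lyz2, with 7 and 25 counts, and Csf1r, with 3 and 13, were higher in the knockdown library. The 4 endothelial markers summed to 0.849 and 0.740 CPM. The part of this change in the make-up of the cultures in the values below was not tested, and in such bulk RNA fewer cells of a type and less RNA per cell cannot be told apart.

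The proteasome genes were at nearly equal levels in both libraries. Together they held 244954 counts in the control library and 256857 in the knockdown library, which is 0.421% and 0.417% of all counts. The log2 ratio of these sums, knockdown over control after scaling, was -0.04 (95% interval -0.05 to -0.03), beside -0.02 for the sum over all genes tested. That value for all genes follows from the library scaling and is not a measured shift. The median log2 fold change of the 45 genes was -0.0034, with quartiles of -0.09 and 0.03, and the median of all 17356 genes was -0.0029. By sign, 24 genes were lower and 21 higher in the knockdown library.

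A gene was called where its fold change was at least 1.2 and an exact binomial test on the counts of these 2 libraries passed an adjusted p of 0.05, a test that compares the libraries and not the conditions. Psma1 and Psme2b were called lower, which is 2 of 45 genes or 4.44%, beside 13.9% of all genes tested. Psmc3ip was called higher, which is 1 of 45 or 2.22%, beside 10.9% of all genes. Among genes with a mean of at least 1000 counts, to which 41 of the 45 belong, 10.9% of all genes were called lower and 9.04% higher, and of the 41 proteasome genes 2 were called lower and 0 higher. No proteasome gene was called at a 2-fold change, where 4.09% of all genes were lower and 2.19% higher. With no fold threshold, the same test passed 14 genes lower and 8 higher, all but Psma1, Psme2b and Psmc3ip by less than 1.2-fold. The share of all genes passing without a threshold was not taken, so these counts are not read as a result about the proteasome. The shares of 13.9% and 10.9% also stand beside the calls by role below, where the lists are short.

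The spread of the proteasome genes was narrow. A log2 fold change within 0.2 of 0 was found for 37 of 45 genes (82.2%), beside 49.4% of all genes tested and 70.6% of the 8251 genes with a mean of at least 1000 counts. Of the 41 abundant proteasome genes, 85.4% lay within this range. The SD of the log2 fold changes was 0.207 over the 45 genes and 0.702 over all genes, and among genes with a mean of at least 1000 counts it was 0.144 over the 41 proteasome genes and 0.261 over all. In the plot of levels in both libraries the proteasome genes follow the line of equal levels while adipocyte and cell cycle genes leave it on opposite sides.

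**Figure D1:**
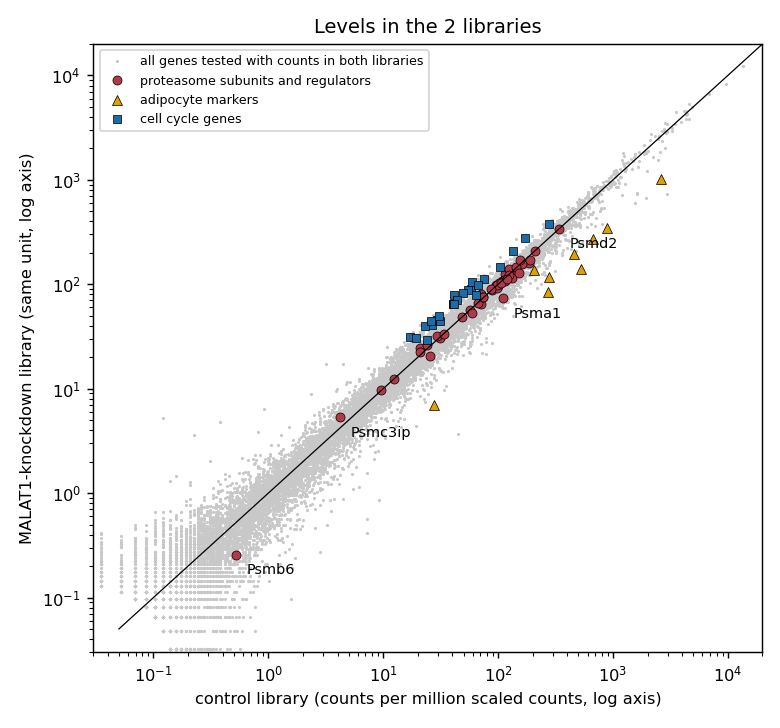
Level of each gene in the control library (horizontal, CPM of scaled counts, log axis) and in the MALAT1-knockdown library (vertical, same unit), 1 point per gene, with the line marking equal levels. Proteasome genes (red circles) lie along the line from Psmb6, with 30 and 16 counts, to Psmd2, with 19631 and 21198, and Psma1 is the abundant one farthest below it.

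The alpha ring, which gates the entry to the core, held the largest difference that was called. Psma1 had 6322 counts in the control library and 4623 in the knockdown library, which is 110 and 74.4 CPM. Its log2 fold change was -0.56 (95% counting interval -0.61 to -0.50), leaving 67.9% of the control level. Psma1 lies on chromosome 7 (chr7:114264606-114276118, minus strand, GRCm38). Psma6 came next with 10754 and 9976 counts, a log2 fold change of -0.21, which passed the test but not the 1.2-fold threshold. Psma2 went the other way, with 6646 and 7811 counts and a log2 fold change of 0.13. Psma5 had 4063 and 4013 counts (-0.12 on the log2 scale). The log2 fold changes of Psma3, Psma4 and Psma7 lay between -0.02 and 0.00, on 2817 and 3039, 6246 and 6707, and 6431 and 6827 counts. Of the 7 alpha subunits tested, 5 were lower and 2 higher, with a median log2 fold change of -0.02, and 1 was called. The testis alpha subunit Psma8 had 0 counts in both libraries, and a count of 0 allows up to 3 counts, or 0.0520 CPM in the control and 0.0483 CPM in the knockdown library.

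The beta ring carries the protease sites, in the constitutive subunits Psmb5, Psmb6 and Psmb7. Psmb5, with the chymotrypsin-like site, had 1797 counts in the control and 1911 in the knockdown library, a log2 fold change of -0.02 (-0.11 to 0.08). Psmb7, with the trypsin-like site, had 5546 and 6058 counts, and its log2 fold change was 0.02 (-0.03 to 0.07). Psmb6, with the caspase-like site, stood apart by its level. It had 30 counts in the control library and 16 in the knockdown library, while the other beta subunits of the constitutive core had at least 1797 counts in each library. Its log2 fold change of -0.99 had an interval of -1.99 to -0.09 and did not pass the adjusted test.

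Psmb3, a structural beta subunit, had 7630 and 7096 counts and a log2 fold change of -0.21 (-0.26 to -0.16), under the threshold for a call. Psmb1, Psmb2 and Psmb4, also without a protease site, had log2 fold changes of -0.06, 0.01 and -0.09 on 9330 and 9611, 5106 and 5517, and 6634 and 6716 counts. Of the 8 beta subunits tested, 5 were lower and 3 higher, with a median log2 fold change of -0.04 and 0 called. Psmb11, the beta subunit of thymic epithelium, had 1 count in the control and 0 in the knockdown library and was not tested. Summed over the 15 genes of the alpha and beta rings, the log2 ratio was -0.09 (-0.10 to -0.08), and without Psma1 it was -0.06 (-0.07 to -0.04).

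Interferon induces replacements for the 3 catalytic subunits, which form the immunoproteasome. Psmb10, the replacement for Psmb7, had 1203 counts in the control and 1513 in the knockdown library. Its log2 fold change of 0.22 (0.11 to 0.33) was the largest increase among proteasome genes with at least 1000 counts and stayed under 1.2-fold. Psmb8 and Psmb9, the replacements for Psmb5 and Psmb6, were listed at 0 in both libraries. Of the interferon-induced 11S activator subunits, Psme1 was within counting error of the control level and Psme2 was below it by less than 1.2-fold. Psme1 had 4284 and 4653 counts (0.01 on the log2 scale, -0.05 to 0.07) and Psme2 had 3425 and 3290 (-0.16, -0.23 to -0.10). Of 21 interferon-stimulated genes, 3 were below and 18 above the control level, and the median of their log2 fold changes was 0.34. Of the 21, 11 were called higher (52.4%, beside 10.9% of all genes tested) and 1 lower (4.76%, beside 13.9%). Cmpk2, a mitochondrial nucleotide kinase, had 273 and 685 counts and a log2 fold change of 1.22, the highest of that list. The gene called lower was Tap2, a peptide transporter of antigen presentation, with 321 and 180 counts and a log2 fold change of -0.94 (-1.21 to -0.67). Tap2 is a neighbour of Psmb8 and Psmb9 and lies in the same stretch of low counts, described below.

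The 19S particle was even across its genes. All 17 of its genes had log2 fold changes within 0.2 of 0, 14 of them within 0.1, and none passed the threshold of 1.2-fold. Their sum gave a log2 ratio of -0.01 (-0.02 to 0.00), and the SD of their log2 fold changes was 0.0842. The gene with the most counts was Psmd2, a scaffold of the base, with 19631 and 21198 counts and a log2 fold change of 0.00 (-0.02 to 0.03). Psmd1, the other scaffold, had 11998 and 12837 counts (-0.01), and the ubiquitin receptor Psmd4 had 6155 and 6354 (-0.06).

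The 6 ATPases that unfold the substrate were 3 lower and 3 higher, with a median log2 fold change of 0.00. Psmc4 had 4091 counts in the control and 4985 in the knockdown library, a log2 fold change of 0.18 (0.12 to 0.24). Psmc3 had 7105 and 8616 counts and a log2 fold change of 0.17 (0.13 to 0.22). These were the only ATPases whose interval lay above 0, and neither reached 1.2-fold. Psmc1, Psmc2, Psmc5 and Psmc6 lay between -0.06 and 0.01 on the log2 scale, on 8289 and 8592, 5834 and 6345, 5776 and 5978, and 7198 and 7645 counts.

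The lid removes ubiquitin chains, and its 8 genes were 4 lower and 4 higher. Psmd14, the deubiquitinase of the lid, had 5032 and 5537 counts and a log2 fold change of 0.03 (-0.02 to 0.09). Psmd3 was the lowest of the lid, with 10855 and 10565 counts and a log2 fold change of -0.15 (-0.18 to -0.11). Psmd8 and Psmd11 followed at -0.09 and -0.10, on 6914 and 6997, and 5639 and 5675 counts. Psmd6, Psmd7, Psmd12 and Psmd13 lay between 0.00 and 0.04 on the log2 scale, with 4294 and 4661, 8222 and 9093, 5588 and 6114, and 3819 and 4102 counts.

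The activators held differences in both directions. Psme3, the nuclear activator PA28 gamma, had 8811 counts in the control and 7932 in the knockdown library, a log2 fold change of -0.26 (-0.30 to -0.21) that left 83.6% of the control level, just short of 1.2-fold. Psme4, the activator PA200, had 8928 and 10645 counts and a log2 fold change of 0.15 (0.11 to 0.19). These activators, both found in the nucleus, thus lay on opposite sides of the control level. Psmf1, the inhibitor PI31, had 1945 and 2059 counts (-0.02). Psme2b had 1480 and 1284 counts and was called lower at a log2 fold change of -0.31 (-0.42 to -0.20). It is a near copy of Psme2, 99.4% identical over 794 aligned bases, so reads may have been split between them, and their summed counts of 4905 and 4574 gave a log2 fold change of -0.21 that was not called.

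The assembly chaperones were 1 lower and 5 higher of 6, with a median log2 fold change of 0.06 and none called. Psmd10 (gankyrin), a chaperone of the base, had 1691 and 2001 counts and a log2 fold change of 0.14 (0.04 to 0.23). Psmd9, another chaperone of the base, had 1394 and 1635 counts (0.12) and Psmd5 had 3286 and 3534 (0.00). Of the chaperones of the core, Psmg2 had 1209 and 1386 counts (0.09), Psmg3 had 553 and 606 (0.03) and Psmg4 had 710 and 772 (0.01). Psmg1, which works in a pair with Psmg2, had only 4 and 2 counts and was not tested.

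Psmc3ip matches by its symbol alone, since it encodes a partner of the meiotic recombinases and no proteasome subunit. It had 243 counts in the control and 332 in the knockdown library, a log2 fold change of 0.34 (0.10 to 0.59). Of its exonic bases, 21.2% overlap Mlx on the opposite strand, which had 3581 and 3369 counts. Whether strand was used in counting is not given in the sources used here, so reads of the pair cannot be told apart. Without Psmc3ip, 0 of 44 proteasome genes were called higher. The plot of fold changes by role shows the short distances from 0 in the 19S particle and the wide interval of Psmb6.

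**Figure D2:**
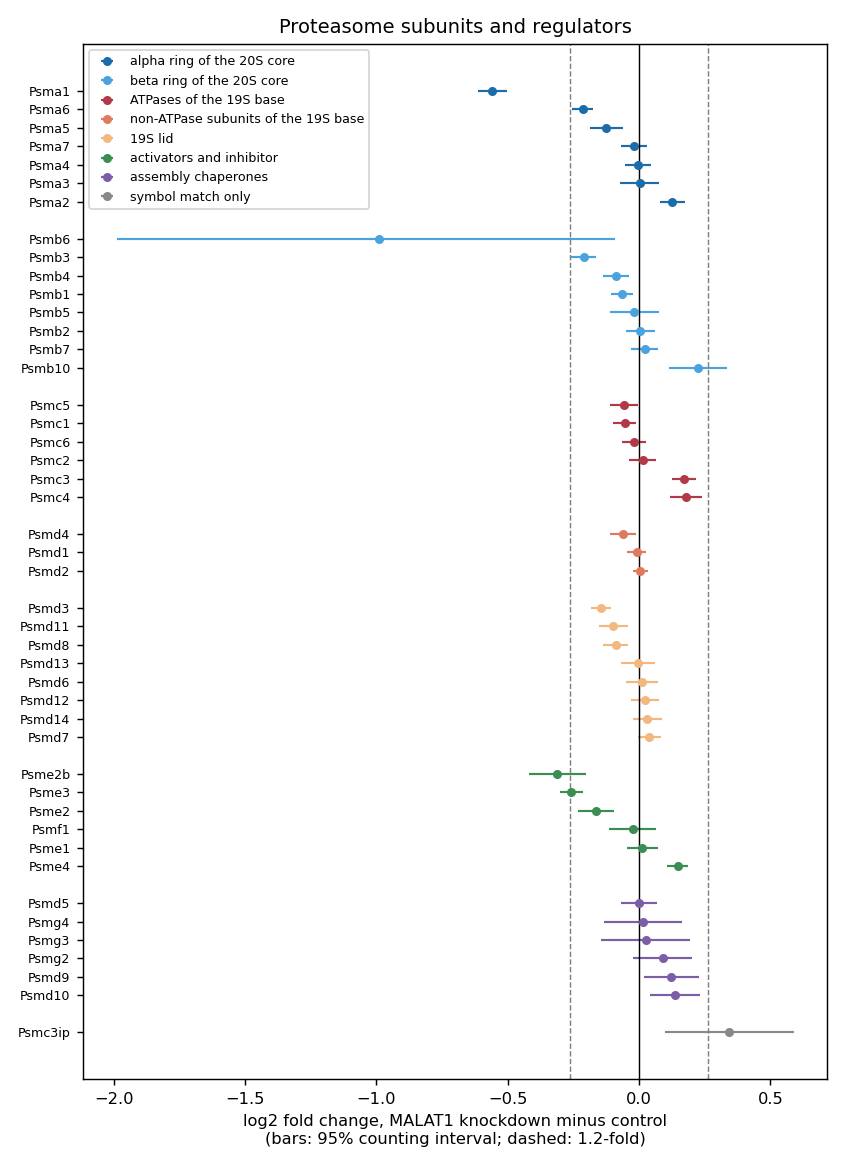
Log2 fold change (knockdown minus control, horizontal) of each of the 45 proteasome genes, ordered within its role, with bars for the 95% counting interval and dashed lines at a fold of 1.2. Psma1 at -0.56 and Psme2b at -0.31 lie beyond the lower line and were called, Psmb6 has the widest interval, and every gene of the 19S particle lies between the lines.

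Levels per length show how evenly the subunits of one ring were represented, using CPM per kilobase of the longest principal transcript of GENCODE M21. In the control library the ATPases ranged from 49.2 CPM per kilobase (Psmc4) to 90.3 (Psmc1), a 1.83-fold range. The lid ranged from 33.3 (Psmd13) to 90.1 (Psmd7), a 2.71-fold range. The alpha ring ranged 10.4-fold, from 17.2 (Psma3) to 179 (Psma6). The annotated transcript of Psma3 has 2846 bases, while that of Psma2, at 39.6 CPM per kilobase, has 2911. Copies of Psma3, described below, held 62.6% as many counts as Psma3 in the control library. The part of transcript length or copies in this range was not tested. The beta ring ranged from 15.9 (Psmb10) to 173 (Psmb3) without Psmb6, which had 0.651 CPM per kilobase in the control and 0.323 in the knockdown library. Psmb10 is the replacement for Psmb7, and the lowest constitutive beta subunit other than Psmb6 was Psmb5, at 34.6 in the control library. The chaperones, at 9.30 (Psmd9) to 22.2 (Psmg4), lay below every ATPase and every subunit of the base and lid. In the knockdown library the median of the ATPases was 65.2, beside 66.0 in the control library, and the median of the alpha ring was 62.0 beside 91.2, both set by Psma1 as the middle gene.

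**Figure D3:**
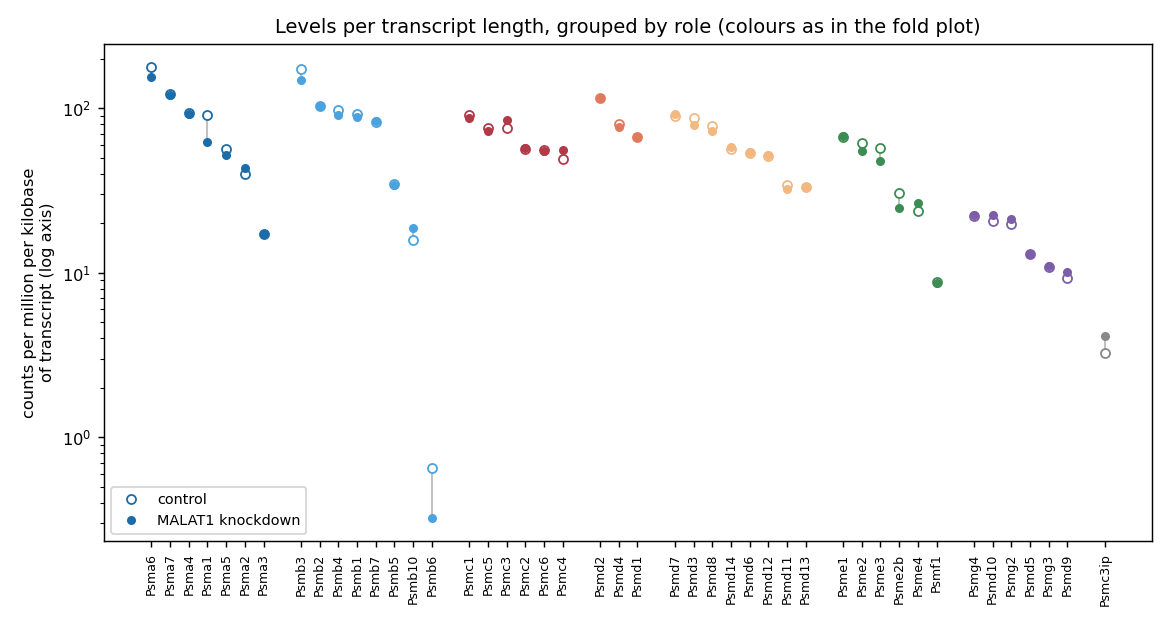
Level per transcript length (vertical, CPM per kilobase, log axis) of each proteasome gene in the control (open) and MALAT1-knockdown library (filled), sorted within its role. The subunits of the 19S particle lie between 32.1 and 115 in both libraries, and Psmb6 lies far below every other gene.

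Some of these counts may be shared with near-identical copies elsewhere in the genome. At 95% identity or more over at least 200 bases, processed pseudogenes or other copies were found for Psma3, Psma4, Psma5, Psmb3, Psmb5, Psmc1, Psmd2 and Psmd11 as well as the Psme2 and Psme2b pair. The pseudogene Gm13835, identical to Psma3 over 665 aligned bases, had 1746 and 2091 counts, and the copies of Psma3 together held 62.6% as many counts as Psma3 in the control library. With its copies added, the log2 fold change of Psma3 was 0.07 in place of 0.00. The Psmb5 copy Gm3375 had 1384 and 1398 counts, 77.0% as many as Psmb5, and adding it gave a log2 fold change of -0.05 in place of -0.02. No such copy was found for Psma1 or Psmb6. Several genes also share exonic bases with genes on the opposite strand, among them Psmb7, Psmc3 and Psmd13 with Nek6, Slc39a13 and Sirt3. Psmd9 shares 25.5% of its exonic bases with Gm26745, for which no counts are listed. Psme2b shares 4.90% with 9930111J21Rik1 on the same strand, which had 216 and 408 counts.

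Psmb6 lies in a stretch of chromosome 11 where counts were low throughout. Of the 10 protein-coding genes on each side of it, 0 of 20 reached 1000 counts in either library, while the other 44 proteasome genes tested had between 5 and 16 such neighbours, with a median of 10. Among the neighbours of Psmb6, Pfn1, the widely expressed actin-binding profilin, had 181 and 208 counts. Across the genome 38.8% of protein-coding genes reached 1000 counts. Psmb8 and Psmb9 on chromosome 17 also had 0 of 20 such neighbours, among them Brd2 with 31 and 58 counts, and Psmg1 had 4 of 20. The part of these surroundings in the low counts of Psmb6, Psmb8, Psmb9, Psmg1 and Tap2 was not tested, so no more is read from these counts. Psma1 had 10 of 20 such neighbours. Its neighbour Copb1, a coat protein of the Golgi, had 10761 and 11708 counts, and Pde3b, a phosphodiesterase of insulin signaling on the other side, had 1476 and 717.

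**Figure D4:**
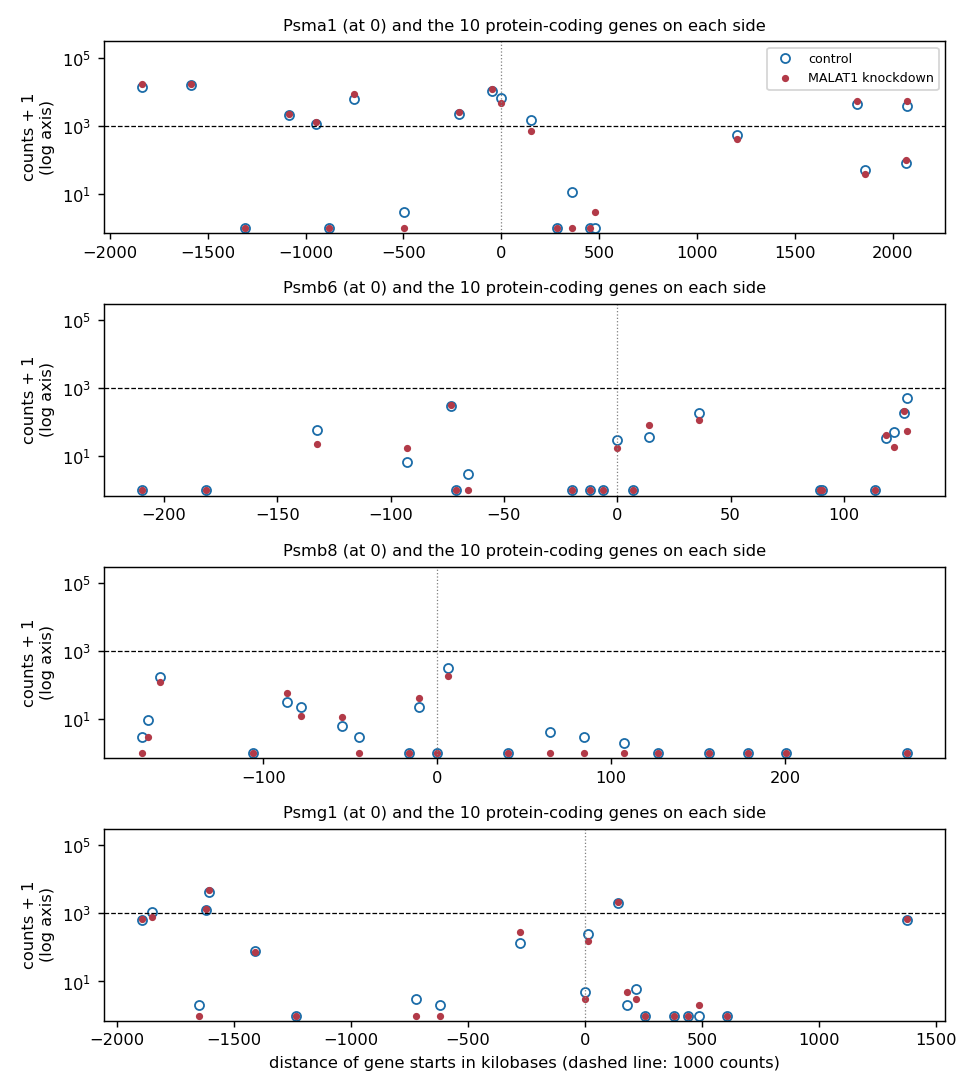
Counts plus 1 (vertical, log axis) of Psma1, Psmb6, Psmb8, Psmg1 and the 10 protein-coding genes on each side of each, against the distance between gene starts in kilobases, in the control (open) and MALAT1-knockdown library (filled). Around Psmb6 and Psmb8 no gene reaches the dashed line at 1000 counts, while 10 neighbours of Psma1 and 4 of Psmg1 do.

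The promoters of the proteasome genes were searched for short sequence elements, and the shares are given beside those of all promoters. RefSeq windows from 250 bases before to 50 bases after the start (GRCm38.p6) were matched for 38 of the 45 genes, giving 41 promoters. Both strands were searched for the core of the antioxidant response element, TGACNNNGC, through which the factor Nrf1 is known to control proteasome genes, for the CCAAT box, CCAAT, and for the ETS core, CCGGAAG. The first was found in 6 of 41 promoters (14.6%), beside 12.4% of all 32851 promoters. These were Psmb5, Psmb6, Psmc6, Psmd9, Psmd12 and Psme4. The CCAAT box was found in 31.7%, beside 37.4% of all promoters. The ETS core was found in 15 of 41 promoters (36.6%), beside 8.86% of all promoters. A GC box, GGGCGG, was found in 56.1% beside 35.7%, and the TATA box, TATAAA, in 7.32% beside 13.6%. The cAMP response element, TGACGTCA, which begins with the letters TGAC of the antioxidant element, was found in 0 of 41, beside 1.79% of all promoters. The set of all promoters was not limited to genes with counts in these libraries, and the part of this in the differing shares was not tested. The median log2 fold change was 0.00 for the 6 genes with the antioxidant element and -0.01 for the genes without it, and -0.02 with and 0.00 without the CCAAT box. It was 0.00 with and -0.01 without the ETS core, and 0.00 with and -0.04 without the GC box. A match is a description of these letters and not a bound site.

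The stretches before the start are shown for Psma1, the most changed abundant gene, for the catalytic subunits Psmb5 and Psmb6, and for Psmc6 and Psmd2 of the evenly expressed 19S base. They run 5′ to 3′ on the strand of the gene in GRCm38.p6, with capitals for matches to TGACNNNGC, CCAAT or CCGGAAG on either strand. They lie at chr7:114276119-114276366 (minus) for Psma1, chr14:54618023-54618245 (minus) for Psmb5, chr11:70525107-70525356 (plus) for Psmb6, chr14:45329574-45329787 (plus) for Psmc6 and chr16:20651402-20651651 (plus) for Psmd2. Annotated exon bases next to the RefSeq start were left out. The stretches therefore end 2 bases before the start for Psma1, 27 for Psmb5 and 36 for Psmc6.
Psma1: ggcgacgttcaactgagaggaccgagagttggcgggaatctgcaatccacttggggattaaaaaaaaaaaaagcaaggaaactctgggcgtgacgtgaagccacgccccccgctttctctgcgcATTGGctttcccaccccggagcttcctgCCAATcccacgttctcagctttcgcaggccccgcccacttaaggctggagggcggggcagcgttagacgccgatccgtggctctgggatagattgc
Psmb5: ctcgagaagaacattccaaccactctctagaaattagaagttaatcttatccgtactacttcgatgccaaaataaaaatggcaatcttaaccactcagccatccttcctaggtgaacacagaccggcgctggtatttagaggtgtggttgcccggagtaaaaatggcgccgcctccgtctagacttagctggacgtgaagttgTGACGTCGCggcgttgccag
Psmb6: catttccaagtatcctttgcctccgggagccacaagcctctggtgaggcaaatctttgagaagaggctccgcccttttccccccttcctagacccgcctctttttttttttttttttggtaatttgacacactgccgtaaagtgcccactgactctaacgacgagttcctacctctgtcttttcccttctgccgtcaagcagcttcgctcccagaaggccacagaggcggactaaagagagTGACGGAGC
Psmc6: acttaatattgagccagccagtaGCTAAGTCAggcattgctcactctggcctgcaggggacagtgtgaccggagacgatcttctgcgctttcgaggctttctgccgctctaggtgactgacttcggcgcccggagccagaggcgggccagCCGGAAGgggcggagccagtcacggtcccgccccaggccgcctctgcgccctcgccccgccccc
Psmd2: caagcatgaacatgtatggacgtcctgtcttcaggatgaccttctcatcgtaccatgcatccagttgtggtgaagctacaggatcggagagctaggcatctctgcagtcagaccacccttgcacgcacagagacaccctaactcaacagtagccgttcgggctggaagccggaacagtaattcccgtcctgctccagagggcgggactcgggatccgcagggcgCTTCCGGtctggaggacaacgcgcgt
Psma1 holds a CCAAT box on each strand and no antioxidant element in this stretch, while Psmb5, Psmb6 and Psmc6 hold an antioxidant element and Psmc6 and Psmd2 hold an ETS core.

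Genes that act with the proteasome were mostly similar in both libraries, with few calls outside the ubiquitin genes and E1 enzymes. Of 10 other subunits and assembly factors, 5 were lower and 5 higher, with a median log2 fold change of -0.01. Of these 10, 0 were called, beside 13.9% of all genes tested called lower and 10.9% higher. Usp14, a deubiquitinase that docks on the 19S particle, was the highest at 3789 and 4712 counts, a log2 fold change of 0.21. Pomp, the maturation chaperone of the core, had 3626 and 3604 counts (-0.12). Of 16 genes of the Nrf1 pathway of proteasome gene control, 9 were lower and 7 higher, with a median of -0.03. Only Maff was called, lower at 3783 and 3080 counts (-0.40), which is 6.25% of the list beside 13.9% of all genes tested. Nfe2l1, which encodes Nrf1, had 26756 and 24401 counts, and its log2 fold change of -0.24 (-0.26 to -0.21) was under 1.2-fold. Nfe2l2, which encodes the related Nrf2, had 11628 and 14199 counts and a log2 fold change of 0.18 (0.15 to 0.22). Ddi2, the protease that activates Nrf1, had 2450 and 2292 counts (-0.20), and Vcp, the p97 ATPase that extracts it from the membrane, had 26448 and 28122 (-0.02).

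Among the ubiquitin genes and E1 enzymes, 2 of 6 were called higher (33.3%, beside 10.9% of all genes tested) and 0 lower (beside 13.9%). Rps27a, a ubiquitin-ribosomal fusion gene, had 451 and 690 counts and a log2 fold change of 0.51 (0.33 to 0.68), and Uba6, the second ubiquitin-activating enzyme, had 1265 and 1671 (0.29). Near-identical copies were searched for the proteasome genes only, so reads shared between Rps27a or Uba6 and copies elsewhere were not looked for. The polyubiquitin gene Ubb had 17975 and 19152 counts and a log2 fold change of -0.02. Of 15 shuttle factors and p97 cofactors, 10 were lower and 5 higher, and 1 was called higher (6.67%, beside 10.9% of all genes tested). The called gene was Ubqln2, which carries ubiquitinated proteins to the proteasome, at 4222 and 6234 counts (0.46, interval 0.40 to 0.51).

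Other large complexes present in every cell had small differences too. The 8 genes of the cytosolic chaperonin CCT had a median log2 fold change of 0.06, the 9 of the COP9 signalosome 0.00 and the 14 of the translation factor eIF3 -0.01, each with 0 genes called. Of all genes tested, 13.9% were called lower and 10.9% higher, shares at which lists this short hold few calls. The share of genes with a log2 fold change within 0.2 of 0 was 100% for the chaperonin and the signalosome, 92.9% for eIF3, and 82.2% for the proteasome genes. The narrow spread of the proteasome genes is therefore described beside theirs and is not called particular to the proteasome. The plot by gene list shows these lists near 0, with adipocyte markers at a median of -1.37 and cell cycle genes at 0.65.

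**Figure D5:**
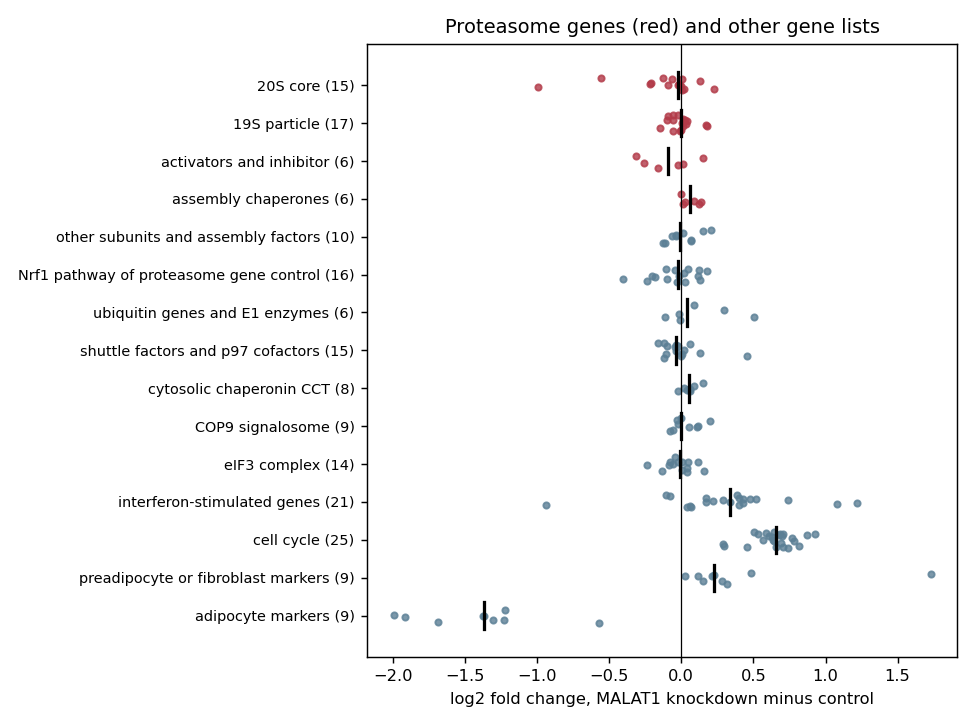
Log2 fold change (knockdown minus control, horizontal) of each tested gene in the proteasome roles (red) and in other gene lists (blue), with the number of genes in brackets, a thick bar at each list's median and a thin line at 0. The proteasome roles and the other large complexes have medians between -0.09 and 0.06, while the medians of the adipocyte and cell cycle lists are -1.37 and 0.65.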

How the data were processed

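The authors removed rRNA, made directional libraries and deposited raw read counts per gene, 1 column per library, which were used as deposited. The submitters' processing notes name HISAT2 and GRCm38, while the counting tool, the annotation and the use of strand are not given in the sources used here. Library sizes were multiplied by TMM factors from edgeR (0.992 for the control, 1.01 for the knockdown library). Log2 fold changes are ratios of scaled counts, knockdown over control, with a prior count of 0.5. Without replicates edgeR's quasi-likelihood test cannot be run, so each of the 17356 genes with at least 10 counts in all went through an exact binomial test (two-sided) with Benjamini-Hochberg adjustment. Clopper-Pearson 95% intervals and the limit of 3 counts for a count of 0 cover counting error only, and the depths of 58147539 and 61653549 counts make it small for most of these genes. The test was run on simulated counts that held counting error only, so that run cannot check it against the spread between cultures. The genes and lists were chosen with earlier results of these data known.

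All members of the gene group were described by role. The values were given in full for the 5 highest and 5 lowest with at least 1000 counts, for those with fewer, and for the catalytic subunits, while of the related lists only some of the genes past 1.5-fold or with the most counts were named. Usp14, Pomp, Nfe2l2, Ddi2, Maff, Rps27a, Uba6, Ubqln2, Hsp90aa1, Hspa1a, Hsph1, Hspd1, Hspe1, Gabarapl2, Brd2, Pfn1, Copb1 and Pde3b were outside these criteria and named after their values were seen. Promoters came from RefSeq (GRCm38.p6), lengths and near-identical copies from GENCODE M21 with BLAST+ 2.17.0. The alternatives were other scalings, filters, prior counts and fold thresholds, the exact test of edgeR at an assumed biological coefficient of variation and counts divided by 4. Chosen after the data were examined were adding the near-identical copies and leaving out Psmb6 or Psma1. The tools were R 4.3.3, edgeR 4.0.16, DESeq2 1.42.0 (size factors only), Python 3.11.15 and scipy 1.17.1.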

Additional observations from a re-analysis of the deposited data

How the results depend on the processing

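Without replicates, the spread between cultures is unknown, and the calls rest on counting error. No paired analysis was possible because each group has 1 library. The counts of called proteasome genes, 2 lower and 1 higher, were the same with library totals, DESeq2's size factors, upper-quartile factors, either other filter and a prior count of 2. Dividing counts by 4 left 2 lower and 0 higher, since Psmc3ip was lost. A fold of 1.5 or of 2 gave 0 and 0, and no fold threshold gave 14 lower and 8 higher. The shares of all genes at a fold of 1.5 and with no threshold were not taken, so no more is read from those counts. With edgeR's exact test, 0 were called lower and 0 higher at a biological coefficient of variation of 0.1 or 0.2, where the unadjusted p passed 0.05 for Psma1 and Psmb6 at 0.1 and for 0 genes at 0.2. Over all genes that test called 708 lower and 371 higher at 0.1, and 95 and 22 at 0.2. Adding near-identical copies left 1 called lower, since Psme2b was summed with Psme2.

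The median log2 fold change of -0.0034 became 0.0187 with library totals and 0.0061 with upper-quartile factors, as the median of all genes moved from -0.0029 to 0.0192 and 0.0066. The log2 ratio of the sums of -0.0381 became -0.0160 and -0.0286 under these scalings, and -0.0266 without Psma1. The sign of 7 of 45 genes changed with library totals, 4 with upper-quartile factors and 1 with DESeq2's size factors, all with log2 fold changes of at most 0.0204 in size.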

Other observations

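Autophagy is the other main route of protein breakdown. Of its 18 genes, 15 were lower and 3 higher in the knockdown library, and their median log2 fold change was -0.12, beside -0.0034 for the proteasome genes and -0.0029 for all genes tested. Of the 18, 1 was called lower (5.56%, beside 13.9% of all genes tested) and 0 higher, and no test of the list was run. The called gene was Map1lc3a, which encodes a form of the LC3 protein of the autophagosome membrane, at 2051 counts in the control and 1406 in the knockdown library, a log2 fold change of -0.65 (-0.75 to -0.55). The cargo receptor Sqstm1, with 41531 and 41278 counts, and the receptor Nbr1, with 17007 and 16785, had log2 fold changes of -0.12 and -0.13. Gabarapl2, an LC3 relative, had 2083 and 1970 counts (-0.19).

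Of 11 heat shock proteins tested, 2 were called higher (18.2%, beside 10.9% of all genes tested) and 1 lower (9.09%, beside 13.9%). The cytosolic chaperones Hsp90aa1, with 24523 and 31894 counts, and Hsph1, with 2878 and 3756, had log2 fold changes of 0.27 and 0.28. The mitochondrial chaperonin Hspd1 was called lower at 27250 and 23440 counts (-0.32), and its partner Hspe1 had 6196 and 5733 (-0.22). The constitutive chaperones Hsp90ab1, with 143626 and 152309 counts, and Hspa8, with 25757 and 30914, had log2 fold changes of -0.02 and 0.16. The stress-induced Hspa1a and Hspa1b had 1 and 4, and 5 and 11 counts. The counts of the genes around them were not examined, so no more is read from these low counts.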
